A study of Mus musculus with 3 samples.

Results

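Semaphorin, plexin, neuropilin, Eph receptor and ephrin genes were examined in a map of the chromatin bound by FOG2 in mouse heart ventricles at E12.5 (days of gestation). FOG2 is a zinc finger cofactor of GATA factors and is encoded by Zfpm2. All protein-coding genes whose symbols start with Sema3 to Sema7, Plxn, Epha, Ephb, Efna or Efnb were taken, together with Nrp1 and Nrp2. This gave 53 genes, 20 semaphorins, 9 plexins, 2 neuropilins, 14 Eph receptors and 8 ephrins, of 21631 protein-coding genes annotated on the 20 chromosomes with peaks. The ventricles came from mice with both copies of Fog2 carrying a tagged allele (Fog2flbio/flbio) and both copies of Rosa26 carrying the biotin ligase BirA (Rosa26BirA/BirA), and the labels also give the genotype as WT. Pulldown and input samples shared this genotype, so a pulldown without tagged FOG2 was not among the samples. Each replicate pooled about 20 ventricles. Per the labels' protocol, FOG2 was recovered on streptavidin beads in 2 pulldown libraries, while the labels' antibody field names FOG2, and the protocol is followed here. The control was 1 input library. The authors' list of 6166 peaks was called on the pooled pulldown, so no peak has a value per replicate and no spread between replicates can be given. Peaks carry no expression values, and neither the labelled tissue nor the cell type behind any peak could be checked in them.

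Semaphorins are secreted or membrane-bound guidance cues, and plexins are their receptors. The secreted semaphorins encoded by the Sema3 genes mostly bind neuropilins, which pair with A-type plexins and are also receptors for VEGF. Eph receptors are receptor tyrosine kinases that bind ephrins on neighbouring cells. Ephrin-A proteins are held to the membrane by a lipid anchor, while ephrin-B proteins span it and signal back into their own cell. In the embryo these families steer axons, and in the heart they are known for shaping the outflow tract, valves, coronary vessels and the nerve supply.

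FOG2 summits were assigned to 23 of the 53 genes (43.4%), which together received 45 summits. A summit, the highest point of a peak, was assigned to the protein-coding gene body nearest to it within 100 kb. The same rule gave a summit to 2939 of 21631 protein-coding genes, or 13.6%. Genes with a summit were 8 of 20 semaphorins, 5 of 11 plexins and neuropilins, 6 of 14 Eph receptors and 4 of 8 ephrins. Counts also differed within families. All 3 ephrin-B genes, both neuropilins and 3 of 4 A-type plexins had a summit, whereas 1 of 5 ephrin-A genes, 1 of 6 Sema4 genes and none of the 3 B-type plexins did. These divisions rested partly on distant summits, since within 10 kb of the gene body, or with noncoding genes competing, 1 of 3 ephrin-B genes, 1 of 2 neuropilins and 2 of 4 A-type plexins kept one. At folds of at least 5, Efnb2, Efnb3 and Plxna1 lost theirs. These counts are descriptions of a single list of peaks, and no test was made of them.

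Gene length moved with these counts. The genes with a summit had a median gene body of 197 kb and those without one 21.0 kb. Of the 11 genes of 200 kb and over, 11 had a summit, and across the genome the share in this class was 66.2%. In the class from 100 to 200 kb, 7 of 11 genes had a summit against 38.9% of all genes. From 20 to 50 kb the count was 3 of 14 against 11.3%, and under 20 kb it was 2 of 17 against 5.18%. No gene of the families was between 50 and 100 kb long, a class in which 21.9% of all genes had a summit. With the genome-wide share of its own length class given to each gene, 14.0 of the 53 (26.5%) would have a summit. The members' share was thus above that of all genes in each class that held members, with 2 and 3 genes behind the counts in the shorter classes. Expression and open chromatin were not measured in these samples.

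**Figure D1:**
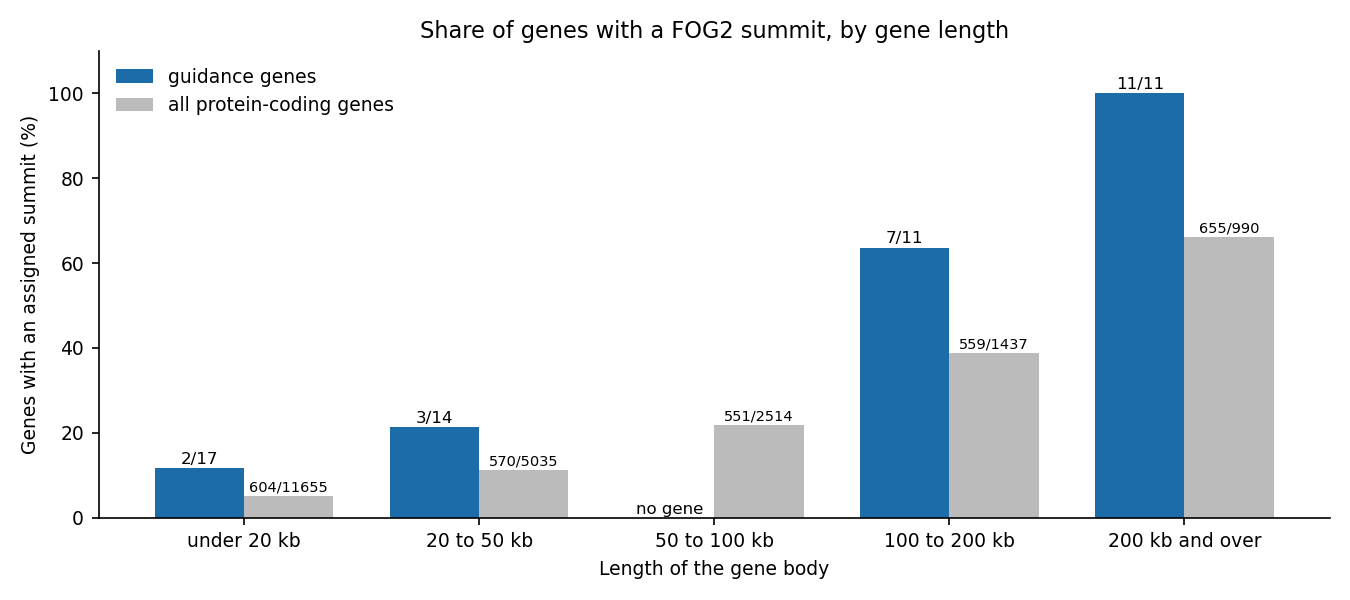
Percentage of genes with an assigned FOG2 summit (vertical axis) in 5 classes of gene body length (horizontal axis), for the guidance genes (blue) and all protein-coding genes (grey), with the numbers of genes above each bar. In both sets the share climbs with gene length, to 11 of 11 guidance genes and 66.2% of all genes at 200 kb and over.

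Folds at these summits, the authors' ratio of pulldown to control at the summit, were in the ordinary range of the list. Their median was 6.84, with quartiles of 5.53 and 9.14, against 6.39 (5.41 and 8.66) over all 6166 peaks. A fold of 10 or more was reached by 9 of 45 summits (20.0%) against 16.9% of all peaks, and 20 or more by 2 (4.44%) against 2.95%. By gene, 7 of the 53 had a summit of 10-fold or more, where 3.01% of all protein-coding genes did. All 7 genes were over 100 kb long, and the genome-wide share was not matched for length. The number of pulldown fragments under each summit was worked back from its fold and p. A median summit rested on 13 fragments, and 16 of 45 (35.6%) rested on 10 or fewer. Over all 6166 peaks the median was 12 fragments, and 39.4% rested on 10 or fewer. Ranges given after fragment counts below are exact Poisson 95% intervals, which hold counting error and no other error.

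**Figure D2:**
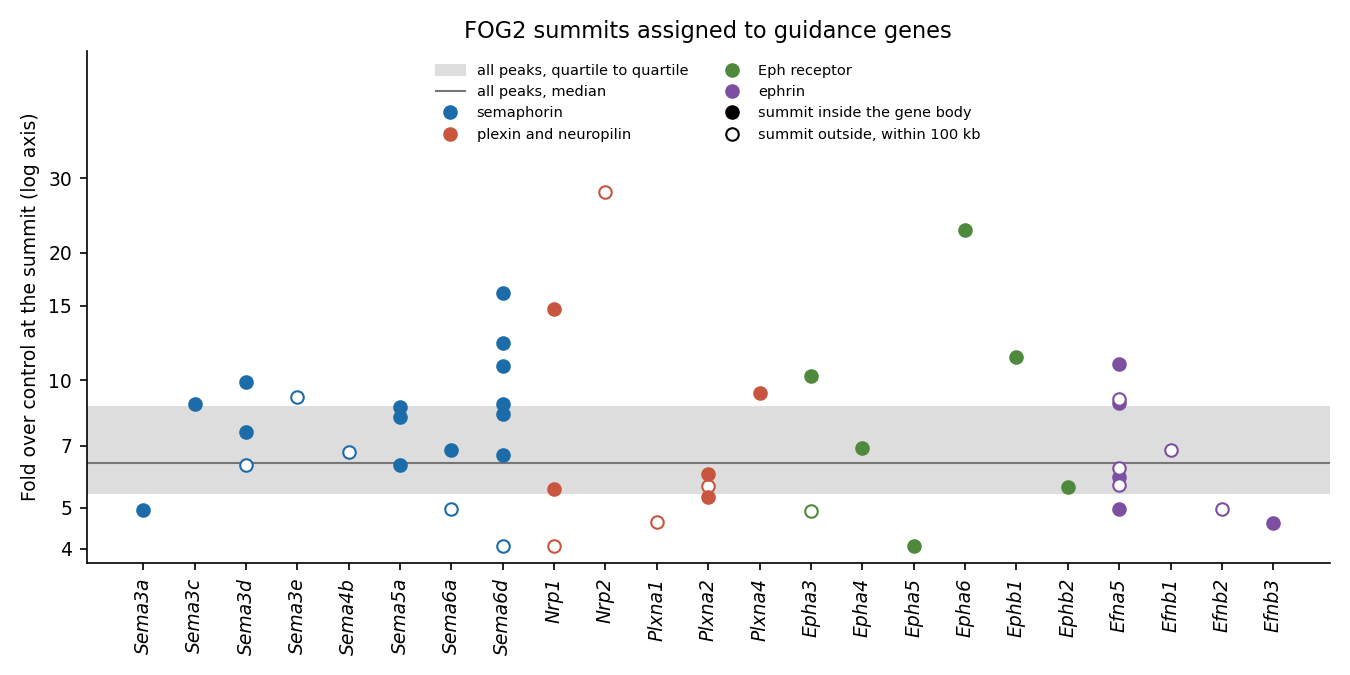
Fold over control (vertical log axis) of each of the 45 summits, by gene and family, with filled points inside the gene body and open points outside it within 100 kb. The grey band spans the quartiles of all 6166 peaks (5.41 to 8.66), and only the summits at Nrp2 (27.8) and Epha6 (22.7) exceed 20.

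Among the secreted semaphorins, 4 of 7 genes had summits, and all 4 lie on chromosome 5. Sema3d, a gene known in epicardium and in the patterning of veins near the heart, had 3. They stood at 9.92-fold (21 fragments, 13.0 to 32.1) and 7.54-fold inside the gene, and at 6.32-fold 42.2 kb after its end. The first of these spanned 12507489 to 12507938. Sema3c, needed for the division of the outflow tract, had 1 summit inside the gene at 8.80-fold (16 fragments, 9.15 to 26.0), at 17635733 to 17635951. Sema3e, whose product binds plexin D1 on endothelium, had 1 at 9.14-fold (14 fragments, 7.65 to 23.5), 89.4 kb before its start. That summit was the one nearest to the edge of the 100 kb window. Just outside the window lay a summit of 6.72-fold, 102 kb before the start of Sema3a. Sema3a, a cue for sympathetic axons in the heart, kept 1 summit inside the gene at 4.96-fold (13 fragments, 6.92 to 22.2). The intervals of these 4 genes' strongest summits overlapped, and the depth did not allow them to be ranked.

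The other 3 secreted semaphorin genes, Sema3b, Sema3f and Sema3g, had no summit, and they were 11.6 to 29.0 kb long against 155 to 479 kb for those with one. A summit of 7.53-fold lay 7.76 kb from Sema3g and went to Tnnc1, the gene of cardiac troponin C. Another of 5.80-fold, assigned to Gnai2, lay 27.7 kb from Sema3b and 44.5 kb from Sema3f. For these genes the count of 0 therefore depended on a nearer neighbour taking the summit.

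Sema6d had the most summits of all semaphorins, 7, with 6 of them inside its 578 kb gene body. Its product is a membrane semaphorin that binds plexin A1 and is known from chamber formation in the embryonic heart. From the start of the gene to its end, the summits inside were 10.8-, 8.32-, 8.80-, 12.2-, 6.68- and 16.1-fold, and 1 of 4.06-fold lay 29.8 kb before the start. The strongest rested on 30 fragments (20.2 to 42.8) and spanned 124662434 to 124662774 on chromosome 2, near the end of the gene. The 12.2-fold summit rested on 34 fragments (23.5 to 47.5) over a control level of 1.86, and the 16.1-fold summit had a control level of 0.931. The widest of them, 766 bp, had a control level of 3.04, the highest of the 45, and so a fold of 6.68 from 26 fragments (17.0 to 38.1). The summit of 10.8-fold lay in the body of the lncRNA gene 4930517E11Rik as well. A further summit of 20.3-fold stood 190 kb after the end of Sema6d, outside the window, with no protein-coding gene nearer.

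Sema6a, also a membrane semaphorin, had 2 summits, at 6.84-fold inside the gene (11 fragments, 5.49 to 19.7) and at 4.97-fold 34.6 kb outside it. Sema5a had 3 inside its 452 kb body, at 8.66-fold (15 fragments, 8.40 to 24.7), 8.21-fold and 6.30-fold. It encodes a membrane semaphorin with thrombospondin repeats. Sema5b, at 123 kb, had none, and its nearest summit went to Pdia5. In the Sema4 group, membrane semaphorins known from B-type plexin signalling, Sema4b alone had a summit, at 6.77-fold (14 fragments, 7.65 to 23.5) and 5.54 kb before its start. Sema4d, 108 kb long, had its nearest summit 206 kb away. Sema4a, Sema4c, Sema4f, Sema4g, Sema6b, Sema6c and Sema7a, all between 12.1 and 27.9 kb long, also had none.

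The strongest peak of all 45 belonged to the neuropilin gene Nrp2. Nrp2 encodes a receptor for secreted semaphorins and VEGF-C. Its only summit was 27.8-fold over control, with 44 fragments (32.0 to 59.1) over a control level of 0.621, close to the lowest level of the list (0.588). The peak spanned 62828180 to 62829305 on chromosome 1 and, at 1126 bp, was the widest of the 45. It lay 10.2 kb after the end of Nrp2, in the body of the lncRNA gene Gm4208, and the next protein-coding gene, Pard3b, was 187 kb away. In the whole list 1.17% of peaks had a fold this high or higher.

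Nrp1, which encodes the receptor for Sema3a and VEGF-A in vessels and axons, had 3 summits. The strongest was 14.7-fold (32 fragments, 21.9 to 45.2), 12.9 kb past the listed start, at 128371846 to 128372139 on chromosome 8. The others were 5.53-fold inside the gene and 4.06-fold 67.9 kb before its start, the latter in the lncRNA gene A930035F09Rik. Beyond the window, 7 more summits lay 121 to 324 kb before the start of Nrp1 with no protein-coding gene nearer. Their folds ran from 4.96 to 15.7, and the strongest of them rested on 53 fragments, more than any of the 45. The window of 100 kb therefore left out 7 of the 10 summits whose nearest protein-coding gene was Nrp1. In the whole list it left out 1464 of 6166.

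The strongest summits of the plexin genes had lower folds than the strongest of either neuropilin gene. Plxna4 had 1 inside its 444 kb body at 9.33-fold (14 fragments, 7.65 to 23.5). Plxna2, a receptor subunit known from neural crest entering the outflow tract, had 3, at 5.63-fold 8.95 kb before the start and at 5.31- and 6.02-fold inside the gene. Plxna1 had 1 at 4.64-fold, 26.2 kb outside the gene, on 7 fragments (2.81 to 14.4). The upper fragment bounds for Plxna1 and Plxna4 stayed below the lower bound for Nrp2 (32.0), whereas the interval of Plxna4 reached above the lower bound for Nrp1 (21.9). These bounds are on fragments, not folds, and leave out the control level. They do not allow for Nrp2 being the highest of all the summits assigned to these families. No summit went to Plxna3, Plxnb1, Plxnb2, Plxnb3, Plxnc1 or Plxnd1. For Plxnd1, the endothelial receptor of Sema3e, the nearest summit was 48.9 kb away at 5.70-fold and went to Tmcc1. Plxnc1, although 154 kb long, had no summit within 173 kb.

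Of the EphA receptor genes, 4 of 9 had summits. Epha6, the longest gene of the families at 969 kb, had a single summit, and it was the second strongest of the 45. It was 22.7-fold, with 35 fragments (24.4 to 48.7) over the lowest control level (0.588), at 60274057 to 60274687 on chromosome 16, and the nearest other summit was 988 kb away. Epha3 had 2 summits, at 10.2-fold (23 fragments, 14.6 to 34.5) and at 4.91-fold 8.35 kb before its start. Epha3 encodes a receptor for ephrin-A ligands that is known from the atrioventricular cushions. Epha4 had 1 at 6.93-fold (10 fragments, 4.80 to 18.4) inside the gene, and Epha5 had 1 at 4.06-fold (8 fragments, 3.45 to 15.8). The fragment intervals of Epha4 and Epha5 did not reach the lower bound for Epha6, and they do not allow for Epha6 being the highest of these genes. Epha7, Epha1, Epha2, Epha8 and Epha10 had none. Around Epha7, summits of 7.11- and 9.02-fold lay 124 and 125 kb after the end of the gene, outside the window. A summit of 14.5-fold was 25.5 kb from Epha2, which encodes an epithelial and vascular receptor, and was assigned to Fam131c.

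EphB receptor genes had 2 of 5 with a summit, both inside long genes. Ephb1 had 1 at 11.3-fold (17 fragments, 9.90 to 27.2), at 102262258 to 102262543 on chromosome 9. Ephb2, known from axon crossing and vessel remodelling, had 1 at 5.60-fold (8 fragments, 3.45 to 15.8), and these intervals overlapped. Ephb4, the receptor that marks veins, had none of its own, and the nearest summit, 11.9 kb away at 6.25-fold, went to Slc12a9. Ephb3 and Ephb6 had none, with nearest summits 147 and 787 kb away.

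Among ligands of the Eph receptors, Efna5 had 7 summits, as many as Sema6d. It encodes a membrane-anchored ligand of EphA receptors with a role in the mapping of axons. Inside the gene, from its start towards its end, lay summits of 4.96-, 8.85-, 5.90- and 10.95-fold. The last rested on 18 fragments (10.7 to 28.4) and spanned 62661877 to 62662174 on chromosome 17. Another 3, of 6.22-, 5.67- and 9.02-fold, lay 58.0 to 69.2 kb before the start, the first 2 of them 1.35 kb apart. Of all 45 summits, 7 had another summit of the list within 10 kb (15.6%, against 18.6% of all peaks), and 5 of these 7 were at Efna5 and 2 at Epha3. Efna1, Efna2, Efna3 and Efna4, each 10.5 kb or shorter, had none. Efna1, Efna3 and Efna4 are neighbours on chromosome 3, and a single summit at Pmvk was nearest to all 3, 147 to 204 kb away.

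The 3 ephrin-B genes each had 1 summit, none of them on more than 12 fragments. Efnb1 had 6.84-fold (10 fragments, 4.80 to 18.4) 27.9 kb after its end. Efnb2, the ligand that marks arteries, had 4.96-fold (10 fragments, 4.80 to 18.4) 81.0 kb after its end. Efnb3 had 4.60-fold (12 fragments, 6.20 to 21.0) inside its 7.06 kb body, with the gene Wrap53 2.37 kb from the summit. Only Efnb1 of the 3 kept its summit when peaks of −log10 q under 5 were left out.

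**Figure D3:**
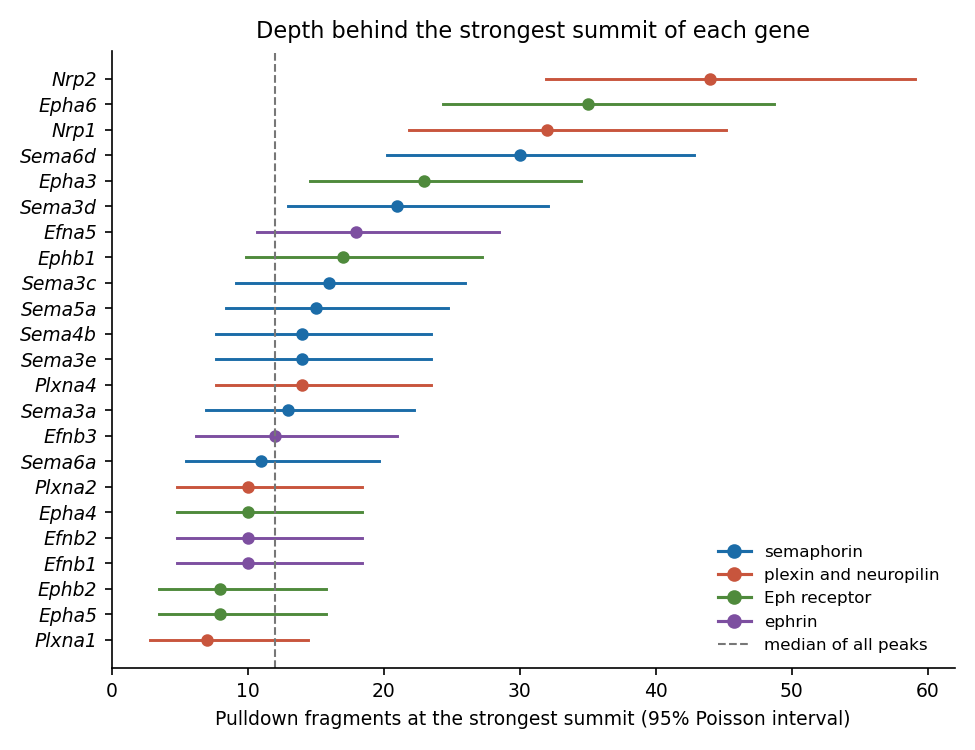
Pulldown fragments at the strongest summit of each of the 23 genes (horizontal axis, points) with exact 95% Poisson intervals (lines), coloured by family. The intervals of Nrp2, Epha6, Nrp1, Sema6d, Epha3 and Sema3d lie above the median of all peaks (12 fragments, dashed), and the other 17 include it. Each point was picked as the gene's highest fold, which favours genes with several summits. The intervals do not allow for this, and a difference from all peaks was not tested. The median covers every peak, not the strongest of each gene, and no matching share over all genes is given.

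Of the 45 summits, 30 were inside the gene body (66.7%, exact binomial 95% interval 51.0 to 80.0), against 60.2% of all summits assigned to a protein-coding gene. The interval takes summits as independent draws, although Sema6d and Efna5 gave 7 each. These shares were not matched for gene length. Summits inside the genes had a median fold of 8.26 and those outside 5.67, and over all assigned summits these medians were 6.37 and 6.48. None of these differences was tested. Of the 15 outside, 9 lay before the start and 4 after the end, and strand was not listed for the other 2. The gene bodies held 4.27 summits per Mb (30 in 7.03 Mb), or 3.72 without Sema6d, against 2.75 for all protein-coding gene bodies. For genes of 100 kb and over the densities were 4.55 per Mb, 3.97 without Sema6d and 3.17 for all genes of that length.

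**Figure D4:**
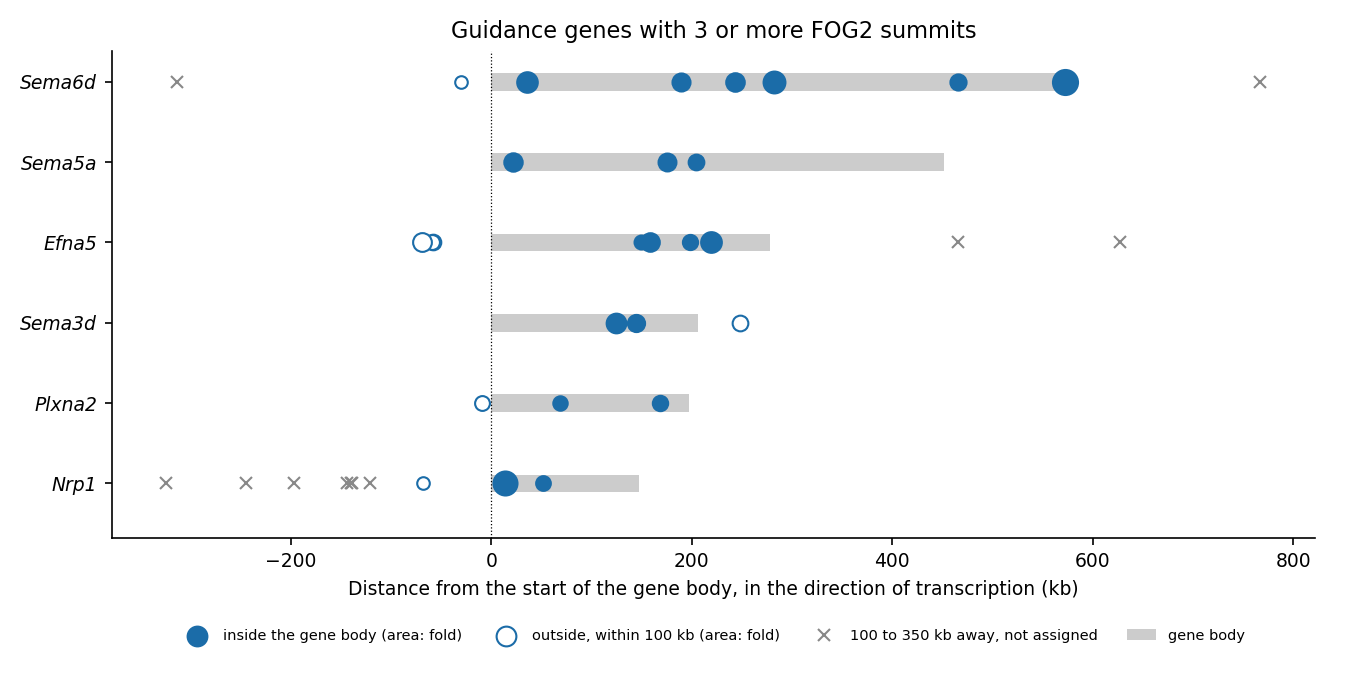
Summits of the 6 guidance genes with 3 or more, by distance from the start of the gene body in the direction of transcription (kb), with gene bodies as grey bars and the area of each circle proportional to fold. Summits of Sema6d and Efna5 spread over the gene and beyond its start, and 7 unassigned summits (crosses) lie 121 to 324 kb before the start of Nrp1.

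In these families 6 of 53 genes had 3 or more summits, where 1.95% of all protein-coding genes had as many. These were Sema6d, Efna5, Sema3d, Sema5a, Plxna2 and Nrp1. Another 2 genes had 2 summits and 15 had 1. A summit inside the gene body was found for 17 of the 53 genes, against 8.31% of all protein-coding genes, a share not matched for length. All 6 genes with 3 or more summits were among the 22 of 100 kb and over, a length at which 12.8% of all protein-coding genes had as many.

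A peak covered the listed promoter of a single gene, Epha3. Promoters, from RefSeq on GRCm38.p6, are the 250 bases before to 50 bases after a listed start, and 47 of the 53 genes had at least 1. Among all protein-coding genes with a listed promoter, 0.48% had a peak over it. The median distance of a summit from the nearest listed start of its gene was 90.9 kb over the 40 summits that could be measured, and 6 of them (15%) were within 10 kb. Over all assigned summits that could be measured, the median was 46.8 kb and 17.4% were within 10 kb. The 5 promoters concerned are shown because they are the ones closest to FOG2 peaks, each 5′ to 3′ on the strand of the gene. Capitals mark letters of motifs searched on both strands, for GATA factors AGATAA and TGATAA, for T-box factors AGGTGT and for TEAD factors GGAATG. The MEF2 motif was searched as well.
Epha3 promoter, chr16:63864126-63864425 (minus strand): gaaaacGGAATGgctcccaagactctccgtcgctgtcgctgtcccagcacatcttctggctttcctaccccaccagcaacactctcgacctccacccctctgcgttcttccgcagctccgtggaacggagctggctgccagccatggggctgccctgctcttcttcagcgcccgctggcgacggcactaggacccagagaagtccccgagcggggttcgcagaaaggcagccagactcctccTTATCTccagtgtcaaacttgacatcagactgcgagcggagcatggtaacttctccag
Sema3a promoter, chr5:13396534-13396833 (plus strand): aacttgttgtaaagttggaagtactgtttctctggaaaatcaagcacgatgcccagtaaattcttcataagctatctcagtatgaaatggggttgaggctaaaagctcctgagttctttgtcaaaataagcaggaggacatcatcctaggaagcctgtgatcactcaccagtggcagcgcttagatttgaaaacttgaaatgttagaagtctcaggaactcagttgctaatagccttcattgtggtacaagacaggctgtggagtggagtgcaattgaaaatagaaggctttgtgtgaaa
Sema4b promoter, chr7:80186620-80186919 (plus strand): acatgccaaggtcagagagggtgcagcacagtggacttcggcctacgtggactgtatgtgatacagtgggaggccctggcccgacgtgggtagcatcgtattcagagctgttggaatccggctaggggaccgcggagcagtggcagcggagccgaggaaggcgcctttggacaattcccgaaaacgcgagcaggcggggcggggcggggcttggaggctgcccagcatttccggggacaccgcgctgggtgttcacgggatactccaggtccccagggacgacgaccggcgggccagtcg
Plxna2 promoter, chr1:194619579-194619878 (plus strand): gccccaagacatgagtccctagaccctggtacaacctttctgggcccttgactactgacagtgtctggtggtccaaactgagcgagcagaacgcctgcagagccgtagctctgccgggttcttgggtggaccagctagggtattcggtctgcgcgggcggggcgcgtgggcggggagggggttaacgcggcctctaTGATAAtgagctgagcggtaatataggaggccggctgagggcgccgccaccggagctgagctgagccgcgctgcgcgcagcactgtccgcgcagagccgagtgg
Sema6d promoter, chr2:124653331-124653630 (plus strand): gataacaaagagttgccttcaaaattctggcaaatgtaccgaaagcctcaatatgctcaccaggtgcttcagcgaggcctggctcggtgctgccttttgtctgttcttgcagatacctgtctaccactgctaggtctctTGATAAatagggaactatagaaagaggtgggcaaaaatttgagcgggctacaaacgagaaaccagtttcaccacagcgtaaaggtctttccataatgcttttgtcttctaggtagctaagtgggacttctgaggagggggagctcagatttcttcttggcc

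The Epha3 peak spanned chr16:63863977-63864314, with its summit 70 bases past the start, and covered the last 189 of the 300 bases printed. TTATCT, which reads AGATAA on the other strand, begins 8 bases before the start, under the peak. GGAATG begins 244 bases before it, outside the peak. In Plxna2 and Sema6d, TGATAA begins 54 and 111 bases before the start, and their nearest summits were 8.99 kb before and 9.02 kb past it. The Sema6d start shown is an internal one, 564 kb into the annotated gene body. The Sema3a start, likewise internal, had its summit 2.68 kb past it, and neither it nor Sema4b held any of these letters. Across the families, GATA letters were in 4 of 61 listed promoters (6.56%), against 15.8% of 21045 promoters of protein-coding genes. T-box letters were in 7 of 61 (11.5%) against 12.8%, TEAD letters in 7 (11.5%) against 13.5%, and the MEF2 motif in 0 against 0.147%. These matches describe the letters in these windows. Sequence under the other summits was not analysed here.

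Genes that act with these families also had summits. Their lists were chosen by function, but with earlier results of these data known. Of 35 partners of semaphorin signalling, 10 (28.6%) had a summit, and the shares below stand beside the 13.6% of all protein-coding genes. The highest folds were at Mical2 (23.5-fold, 8 summits), which encodes an actin-oxidising enzyme of the MICAL family, Vegfa (19.9-fold, 33.6 kb outside the gene), a ligand of the neuropilins, the small GTPase gene Rap1a (12.2-fold, 14.0 kb outside) and the integrin gene Itga1 (9.34-fold). Of 34 matched partners of Eph and ephrin signalling, 14 (41.2%) had one. These were led by the adaptor gene Grb10 (23.0-fold, 5 summits), the PI3-kinase subunit gene Pik3r1 (14.8-fold), Grip1 (13.3-fold), whose product binds the tails of ephrin-B proteins, and Kalrn (12.6-fold). In the netrin and RGM list 12 of 21 (57.1%) had one, led by the netrin receptor gene Unc5d (24.1-fold), the netrin genes Ntn4 (20.3-fold) and Ntn1 (17.3-fold, 4.24 kb outside) and Unc5c (10.8-fold). For the ROBO receptors and SLIT ligands the count was 4 of 7.

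Length again moved with these counts. Among genes of 100 kb and over, 18 of 22 guidance genes had a summit, against 50% of all protein-coding genes of that length. For the partners of semaphorin signalling the count was 7 of 16, below that share, for those of Eph and ephrin signalling 11 of 18, for netrins and RGMs 9 of 9, and for ROBO and SLIT genes 4 of 5. No test of a difference between these lists was made.

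Genes without a summit numbered 30, and 26 of them were under 50 kb long. For 13 of the 30 the nearest summit was within 100 kb but belonged to a nearer gene, and for 17 it was beyond 100 kb. Of the 53 genes, 23 had a summit assigned and 36 had any summit within 100 kb. Over all protein-coding genes these shares were 13.6% and 33.3%, not matched for length. The 4 longer genes without a summit were Epha7, Plxnc1, Sema4d and Sema5b. In the other direction, 36 summits had one of the 53 genes as nearest protein-coding gene but were over 100 kb from it. In the whole list, 1464 of 6166 summits were over 100 kb from any protein-coding gene. The 36 summits were spread over 9 genes, with 7 each at Nrp1, Epha4 and Efnb2 and 5 at Efna5. The strongest, at Sema6d, was 20.3-fold, and those of Efnb2 reached 15.5-fold at 335 kb. Nearness alone leaves unknown which gene, if any, responds to a site.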

How the data were processed

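FOG2-bound chromatin was sequenced from 2 biotin pulldown libraries and 1 input library, grouped by their titles. The authors deposited 1 peak list for the pooled pulldown, with blacklisted regions removed, per the file name. Per the submitters' processing notes, the tools included Bowtie2 2.3.2, SAMtools 1.5, MACS2 2.1.1 and Picard, on mm10. Tool settings were not given in the sources used here. As deposited, fold is a ratio, pulldown over control on a linear scale at the summit, and the deposited −log10 p and −log10 q are the caller's for the same point. The deposited display score was not used.

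Gene bodies came from a RefSeq table (GRCm38.p6). All 53 genes were found by symbol, and 47 had a listed promoter. A summit inside 2 overlapping genes counted for both, which happened at 22 summits, none of them at these genes. Whole fragment numbers were solved from fold and −log10 p (a Poisson tail, 1 added to both sides of the fold), and matched within 0.001 in 100% of peaks. In 83 peaks, none of them at these genes, another whole number fitted as well. Library totals are not in the list. Intervals cover counting error only, since PCR copies may be among the fragments. Assignment and recovery were tested on simulated data. Named genes are all 53, the up to 4 of highest fold in each partner list, and genes that took a nearby summit. Adam13 had no match. The genes, lists and settings were chosen with earlier results of these data known. With 1 pooled list, no test was run. Python 3.11.15, pandas 2.3.3 and scipy 1.17.1 were used.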

Additional observations from a re-analysis of the deposited data

How the results depend on the processing

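Over 10 alternatives, 58 of 80 values stayed within 1.5 times of the count, or within the 95% interval of the share or median, and 22 did not. All 23 genes kept a summit with the middle of each peak as its point. With each summit given to the gene whose body has the nearest end, on either side, 20 genes and 34 summits remained. Epha5, Epha6 and Sema3a lost theirs, and 13% of all protein-coding genes had a summit. With each summit given to every protein-coding gene within 100 kb, 36 guidance genes had one (13 added), against 33.3% of all genes, with 13 semaphorins, 8 plexins and neuropilins and 10 Eph receptors, and 50% of summits lay inside genes. With genes of any biotype competing, 18 genes kept one, with 3 plexins and neuropilins and 2 ephrins, and 88.2% of summits lay inside, since noncoding genes took summits such as that of Nrp2. Within 10 kb, 18 genes kept one, with 3 plexins and neuropilins and 2 ephrins, and 90.9% lay inside. A narrower window removes outside summits only, so that share could only rise. With over 10 fragments, 17 genes, 3 Eph receptors, 2 ephrins and 29 summits remained, 82.8% inside. In the stronger 50% of peaks, 16 genes, 3 plexins and neuropilins, 2 ephrins and 25 summits remained, 80.0% inside, with a median fold of 9.02. That median could only rise, since the lower folds were removed. Of all protein-coding genes, 10.5% kept a summit with any biotype competing and 10% within 10 kb. With over 10 fragments 9.24% did, and in the stronger 50% of peaks 8.01%. Ephrins numbered 2 with peaks of −log10 q under 5 left out, and 2 with folds under 5 left out. Under these settings 17 and 18 guidance genes kept a summit, against 10% and 11.8% of all protein-coding genes. Replicates could not be left out, since the list is pooled. No paired analysis was possible because the columns carry no replicate. Most summits rest on few fragments, which limits the order of folds.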
